A study of Homo sapiens with 6 samples.

Results

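The 5 genes that encode the subunits of NF-kB, NFKB1, NFKB2, REL, RELA and RELB, were described in peak lists of open chromatin from 6 libraries. The genes were taken as a fixed family, and all peaks in each gene body and 100 kb to each side were read on hg38. Peaks with a −log10 q of at least 2 were merged over the libraries into regions, which gave 159 regions near the 5 genes of 216029 in all. NFKB1 had 52 of them, NFKB2 23, REL 24, RELA 22 and RELB 38. The cells were KMS-11, a human multiple myeloma line, which is a cancer of antibody-secreting plasma cells. The 3 control libraries carry the treatment label LentiV2, a lentiviral vector, and the 3 ATF4 knockdown libraries carry the label LentiV2_ATF4g3, which names a single guide. Both groups have the genotype label WT, and no treatment other than the vector was labelled. The assay was ATAC-seq, which uses a transposase to cut open DNA and tag it with adapters for sequencing. ATF4 is a bZIP transcription factor that cells make more of when amino acids run short or proteins misfold. Peak lists measure neither RNA nor protein, so the level of ATF4 itself was not checked.

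NF-kB proteins bind DNA as dimers through a Rel homology domain. NFKB1 and NFKB2 encode the precursors p105 and p100, which are processed to the DNA-binding subunits p50 and p52. REL, RELA and RELB encode c-Rel, p65 and RelB, which carry activation domains. In resting cells inhibitor proteins hold the dimers in the cytoplasm until a kinase complex marks the inhibitor for destruction, whereas p100 holds RelB until it is processed in the alternative pathway. Myelomas are known for mutations that turn on either pathway, and plasma cells depend on receptors that signal through it.

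The lists held 225832 to 238246 summits in the controls and 220250 to 222779 in the knockdown libraries. Merged within a library they made 135070 to 161433 peaks in the controls and more, 163937 to 171685, with the knockdown. The caller's library-wide background, solved for from the deposited values, moves with sequencing depth. It was 2.79 to 3.52 overlapping tags in the controls and 2.15 to 2.51 in the knockdown libraries, without overlap. Pileups, the number of overlapping tags at a summit, were therefore compared through their order within a library. Peak lists hold no reads, so depth itself was not measured. Peaks at gene ends were found in all 6 libraries for 10 of 10 plasma cell markers, 1 of 4 B cell markers, 4 of 4 T and NK cell markers, 0 of 4 myeloid markers and 2 of 4 epithelial and stromal markers. MS4A1, which encodes the B cell protein CD20, had no such peak in any library. A peak at a gene end does not show transcription. The labels number the libraries as biological replicates without describing the cultures, so p-values measure the spread between these libraries.

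The sequences upstream of the start sites were read first, because several NF-kB genes are known to respond to NF-kB itself. RefSeq start sites on GRCh38.p14, the assembly of hg38, were matched for 4 of the 5 genes and gave 8 start entries: 2 for NFKB1, 3 for NFKB2, 1 for REL and 2 for RELA. RELB had no entry, so the region at its lower annotated end is taken below as its start region. The 250 bases before each start were searched on both strands for the NF-kB consensus site and for TGATGNAA and TGACGTCA, sequences of the kind that ATF4 and related factors bind. The NF-kB consensus was found in 4 of the 8 windows, in 6 separate stretches. It was held by 5.21% of all 35116 promoter windows of that length and by 5.82% of those of protein-coding genes. The windows with a match precede NFKB1 start 1, NFKB2 starts 2 and 3 and REL start 1, and windows of the same gene are not independent. Their GC content was 68.4% to 79.6%, and the comparison was not matched for it. Neither TGATGNAA, found in 3.14% of all windows, nor TGACGTCA, found in 1.65%, was present in any of the 8. A match describes letters in a window and is not a measured binding site.

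The 250 bases before the first NFKB1 start (chr4:102501109-102501358, plus strand) and before the REL start (chr2:60881324-60881573, plus strand) are shown because both hold a consensus match, in capitals, inside a peak region found in all 6 libraries.
NFKB1: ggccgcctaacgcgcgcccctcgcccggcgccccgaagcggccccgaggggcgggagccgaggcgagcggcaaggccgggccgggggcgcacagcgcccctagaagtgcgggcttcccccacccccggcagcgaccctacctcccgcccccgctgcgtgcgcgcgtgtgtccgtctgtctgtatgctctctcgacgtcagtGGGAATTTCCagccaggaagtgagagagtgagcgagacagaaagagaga
REL: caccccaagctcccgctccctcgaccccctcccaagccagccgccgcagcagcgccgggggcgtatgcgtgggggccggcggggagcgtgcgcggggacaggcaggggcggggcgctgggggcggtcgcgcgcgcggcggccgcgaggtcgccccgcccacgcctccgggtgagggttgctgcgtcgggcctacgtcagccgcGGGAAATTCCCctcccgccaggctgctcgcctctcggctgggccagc

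The NFKB1 match lay 49 to 40 bases before the start, and the REL stretch 47 to 37 bases before it. REL has overlapping matches on both strands. The REL summits lay 15 to 26 bases downstream of the middle of the match in every library. The strongest NFKB1 summits lay 75 to 559 bases downstream of theirs and were not at 1 place across libraries.

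NFKB2 has stretches before its start entries numbered 2 and 3, which are shown as 30 bases each with the match in capitals and named by the place of their first base before the start. They lie at chr10:102394462-102394491, chr10:102394490-102394519, chr10:102395519-102395548 and chr10:102395674-102395703, all on the plus strand.
NFKB2 stretch at −107: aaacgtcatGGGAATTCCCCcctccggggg
NFKB2 stretch at −78: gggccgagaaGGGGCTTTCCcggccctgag
NFKB2 stretch at −176: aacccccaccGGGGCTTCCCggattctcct
NFKB2 stretch at −21: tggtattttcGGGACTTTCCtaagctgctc

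The stretches at −107 and −78 lay inside the start region of the gene, 94 to 152 bases downstream of its strongest summit. The stretches at −176 and −21 lay in the adjoining region over the third start. No window of RELA held a match.

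The comparison of control with knockdown libraries asked whether knockdown of ATF4 went with a change of open chromatin around these genes. Covered length, the bases under listed peaks in the gene body and 100 kb to each side, was scaled to the total covered length of the library. For none of the 5 genes did this value pass the test (limma, adjusted p over 19868 genes), and none had an unadjusted p under 0.05. Of all genes tested, 5.22% were lower and 5.22% higher in the knockdown libraries, 10.4% together. The libraries of the groups overlapped for each of the 5 genes, where they did not for 29.6% of all genes.

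**Figure D1:**
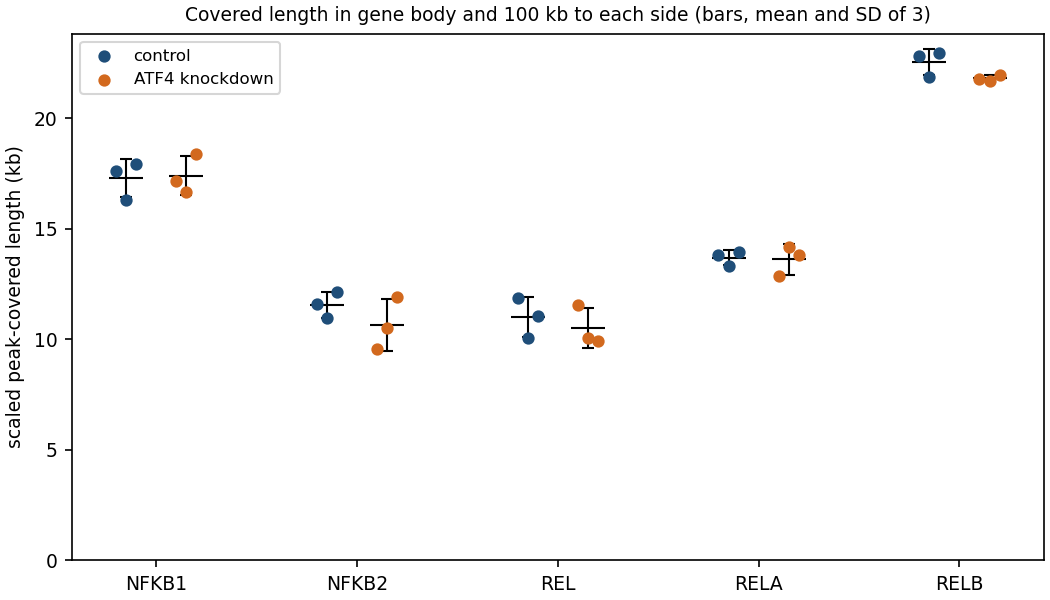
Scaled covered length (kb, y axis) in the window of each NF-kB gene, with 1 point per library, the mean as a line and the SD of 3 libraries as a bar. Control and knockdown points overlap for every gene, and RELB has the longest covered length in both groups.

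NFKB1, whose product p50 is the common partner of p65, had 17611, 16311 and 17942 scaled bp in the controls, against 17151, 16674 and 18372 with the knockdown. The log2 difference was 0.01 (SE 0.07, adjusted p = 0.951). NFKB2 had 11602, 10952 and 12118 scaled bp in the controls, against 9547, 10530 and 11898 with the knockdown. Its log2 difference was −0.12 (SE 0.09, adjusted p = 0.404), the furthest from 0 of the family, and the libraries overlapped between the groups.

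REL had 11868, 10057 and 11045 scaled bp in the controls, against 11538, 10063 and 9906 with the knockdown, a log2 difference of −0.06 (SE 0.09, adjusted p = 0.682). RELA had 13795, 13305 and 13958 against 12852, 14169 and 13810, a log2 difference of −0.01 (SE 0.07, adjusted p = 0.955). RELB had 22812, 21882 and 22973 against 21782, 21703 and 21969, a log2 difference of −0.05 (SE 0.06, adjusted p = 0.657). The median log2 difference was −0.05 over the 5 genes and −0.04 over all genes tested. These results depended on the scaling and on which peaks were counted. With no scaling the differences were −0.24 for NFKB2 (adjusted p = 0.0380) and −0.17 for RELB (adjusted p = 0.0177), where the median of all genes was −0.16 and 6631 genes were called lower. With peaks at a −log10 q of at least 5 alone, where that median was 0.09 and 4435 genes were called higher, they were 0.26 for RELA (adjusted p = 0.00601), 0.19 for NFKB2 (adjusted p = 0.0482) and 0.15 for RELB (adjusted p = 0.0246).

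The windows differed in the share of their length under peaks. Unscaled peaks covered 9.95% ± 0.27 (SD, n = 3) of the RELB window in the controls and 6.80% ± 0.17 of the RELA window. The next were NFKB2 with 5.79% ± 0.20 and NFKB1 with 5.71% ± 0.24, which did not differ beyond their spread, and then REL with 4.59% ± 0.41. The same order, apart from that pair, held in the knockdown libraries, with 8.81% ± 0.12 for RELB, 6.19% ± 0.29 for RELA, 5.26% ± 0.30 for NFKB1, 4.89% ± 0.56 for NFKB2 and 4.01% ± 0.35 for REL. The windows also differ in what else they hold. Those of RELA and RELB each hold 10 other protein-coding genes, NFKB2 has 7, REL 3 (PAPOLG, PUS10 and PEX13) and NFKB1 only MANBA.

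**Figure D2:**
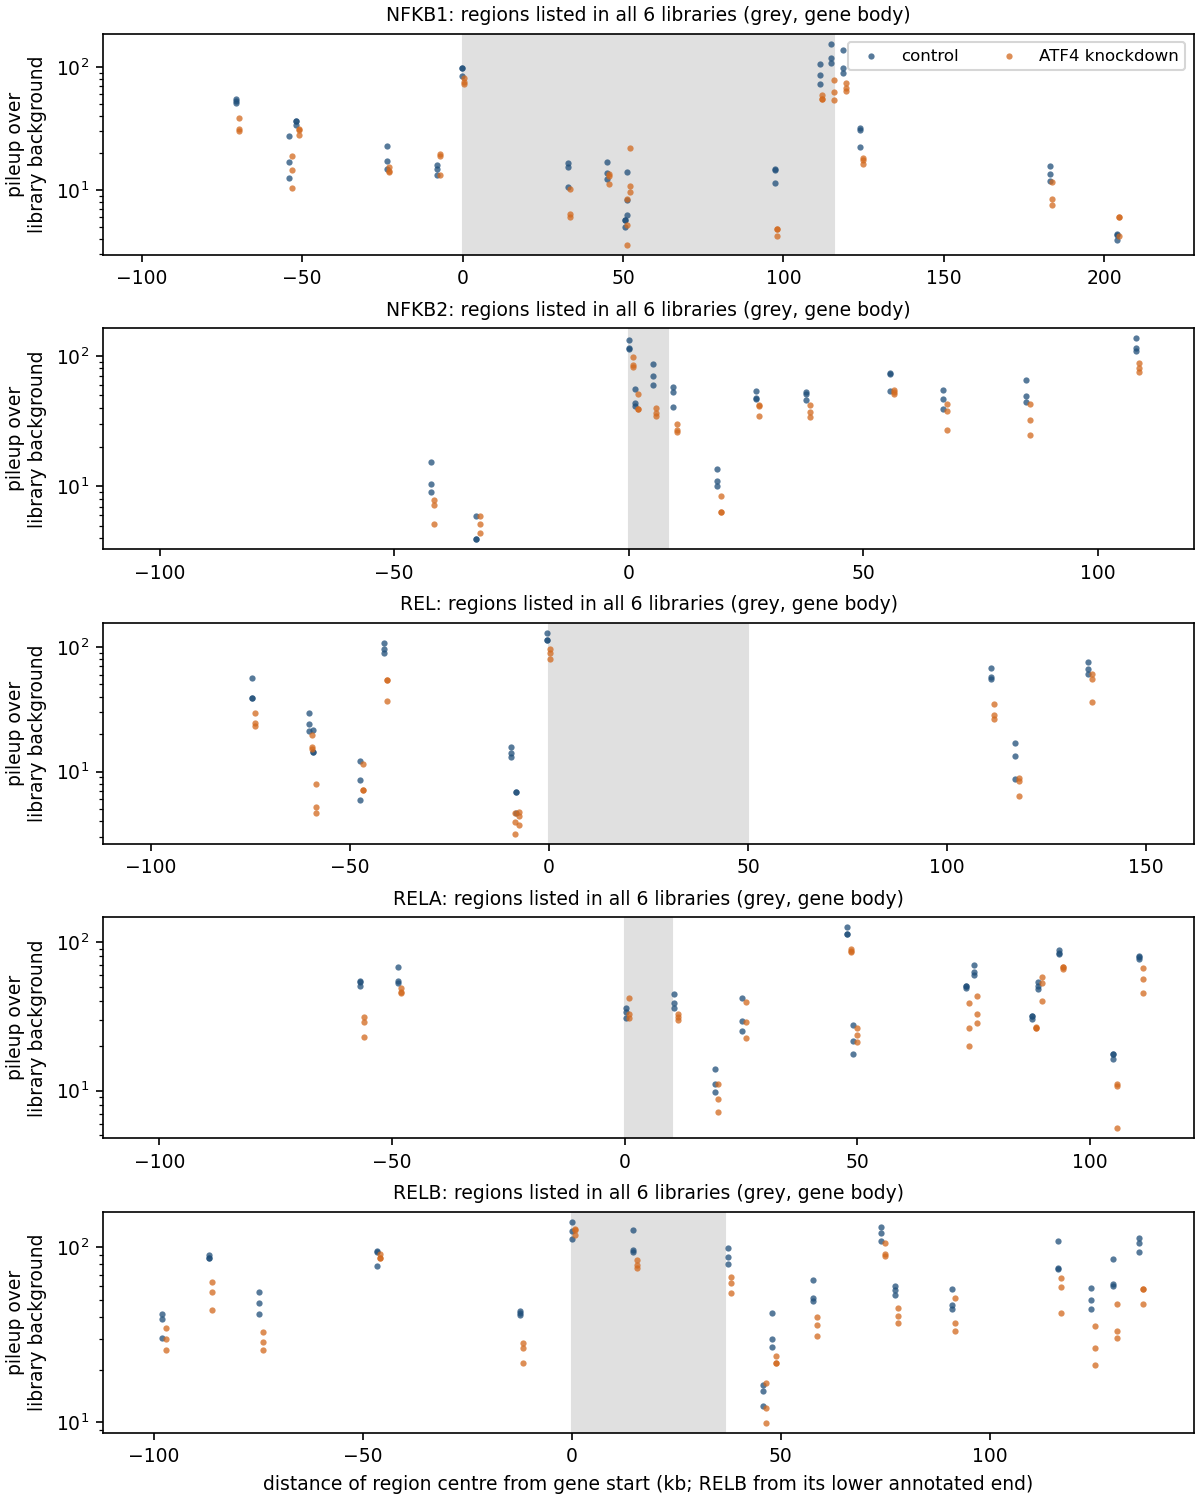
Pileup over the library-wide background (log axis) of each region listed in all 6 libraries, against the distance of its centre from the start of the gene in kb, with 1 point per library and the gene body in grey. RELB distances are from its lower annotated end. NFKB1 regions lie in the body and beyond both ends, whereas the REL body holds no region listed in all 6 libraries away from its start.

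Of the 159 regions, 69 (43.4%) were found in all 6 libraries, where 28.7% of all regions were. They were 16 of 52 near NFKB1, 13 of 23 near NFKB2, 8 of 24 near REL, 14 of 22 near RELA and 18 of 38 near RELB. NFKB1, the longest of the genes at 115944 bp, had 22 regions inside its body away from its ends, RELB had 4 and NFKB2 2. REL and RELA had none. Only 2 of 22 RELA regions, 3 of 23 NFKB2 regions and 5 of 38 RELB regions were nearest to the member itself, against 37 of 52 for NFKB1 and 10 of 24 for REL.

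The number of regions found near REL was 18, 15 and 15 in the controls, against 13, 10 and 12 with the knockdown, so the groups did not overlap. RELB had 30, 29 and 27 against 20, 24 and 26, and RELA 18, 19 and 18 against 17, 15 and 17, again without overlap. An exact two-sided permutation test gave p = 0.1 for each, the smallest p that 3 against 3 libraries allow. The regions found over the whole series did not overlap between the groups either, with 108176 to 116635 in the controls and 102360 to 107277 with the knockdown (exact permutation p = 0.1). NFKB1 had 27, 26 and 28 against 25, 26 and 27 (exact permutation p = 0.5), and NFKB2 had 19, 17 and 17 against 15, 17 and 18 (exact permutation p = 0.6). The knockdown count was 0.729 times the control count for REL, 0.814 times for RELB and 0.891 times for RELA, where it was 0.918 times over the whole series. Counts of all listed peaks, merged within a library and without the minimum −log10 q of 2, did overlap between the groups for these 3 genes. They were 23, 18 and 20 against 22, 20 and 20 near REL. Near RELB they were 36, 32 and 31 against 34, 35 and 36 (exact permutation p = 0.4). Near RELA they were 21, 21 and 19 against 22, 22 and 20 (exact permutation p = 0.5). The library-wide background was also lower in the knockdown libraries, and the part of depth in these counts was not tested.

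A region was called specific to a group when it was found in all 3 of its libraries and no listed peak touched it in the other group. Near the 5 genes 3 regions were specific to the controls, against 1.5% of all regions, and 0 to the knockdown libraries, against 0.102%. All 3 lay next to other genes of the windows. The region in the NFKB2 window, chr10:102420037-102420587, was 0.09 kb from an end of PSD and had pileups of 48, 41 and 46. The region in the RELA window, chr11:65577061-65577629, lay inside EHBP1L1, with pileups of 56, 65 and 85. The region in the RELB window, chr19:45079607-45079938, lay inside GEMIN7, with pileups of 102, 80 and 95. Their −log10 q reached 4.61 to 14.4 and their folds stayed between 2.05 and 2.81, so these were weak peaks on a high local background.

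Fold enrichment, a value of the authors' caller, is the pileup at a summit over the local background with 1 added to each. For the 68049 regions listed in all 6 libraries, 74 of them near the 5 genes, the fold was turned into a percentile rank within each library. Ranks were compared with limma over all 68049 regions. Near the 5 genes 2 of 74 regions were called lower in the knockdown libraries, where 2.23% of all regions were. Another 3 of 74 were called higher, where 1.97% of all regions were. The 2 called lower lay inside NFKB1 and upstream of REL, and the 3 called higher were all in the RELB window. All 5 calls were lost with any 1 library left out (adjusted p = 0.0548 to 0.140) and when regions were ranked by peak width (adjusted p = 0.355 to 0.992).

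**Figure D3:**
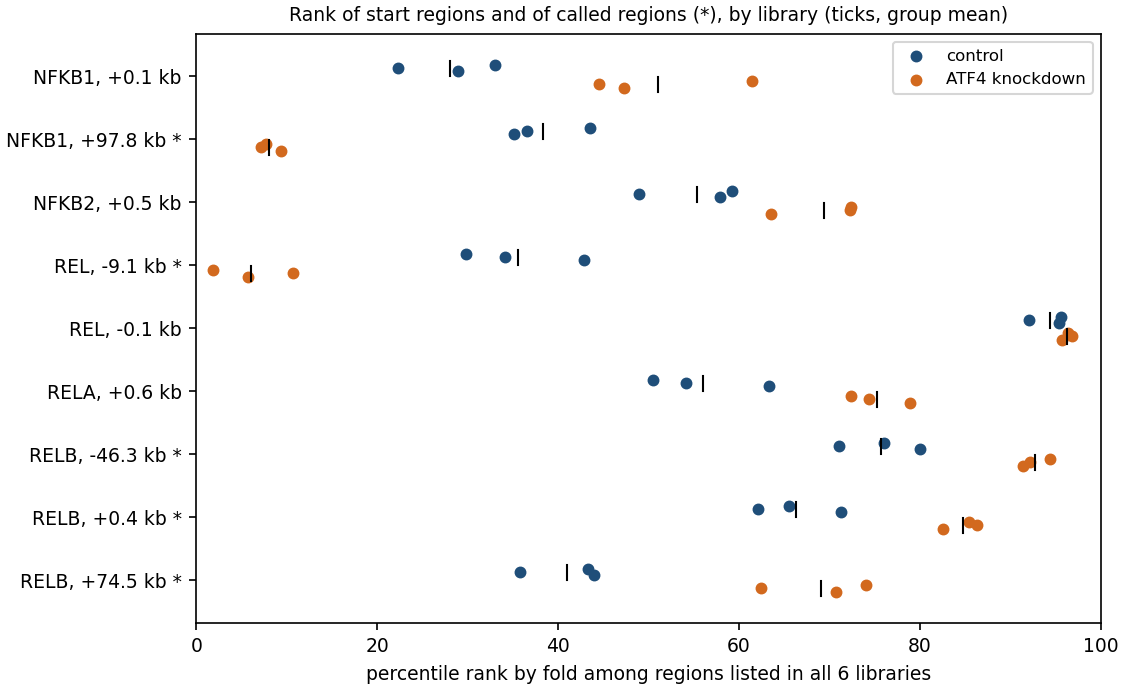
Percentile rank by fold (x axis, percent) of the start region of each gene and of the called regions, marked by an asterisk, labelled by gene and distance from its start in kb. RELB distances are from its lower annotated end. Points are libraries and ticks are group means. The NFKB1 region at +97.8 kb and the REL region at −9.1 kb have no overlap between the groups.

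Among the genes of the precursors, the called NFKB1 region, chr4:102598445-102599780, lay inside the gene body 97.8 kb from its start. Its pileup was 46, 41 and 40 in the controls, against 12, 9 and 12 with the knockdown, while its local background was 3.67 to 4.77 in the controls and 2.15 to 3.15 in the knockdown libraries. The −log10 q was 28.7, 26.6 and 21.4 in the controls, against 2.56, 2.09 and 3.20 with the knockdown. Its percentile fell from 38.4 ± 4.49 to 8.07 ± 1.17 (SD, n = 3), a difference of −30.3 (SE 5.63, adjusted p = 0.0332). The peak also covered less DNA, with 991, 1233 and 1259 bp in the controls, against 548, 387 and 732 bp with the knockdown. The mean pileup in the knockdown libraries was 0.26 times that of the controls, where the median over all common regions was 0.524 times. Ranked by pileup in place of fold, the difference was −24.4 (adjusted p = 0.00933). Exons and introns were not told apart here.

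The NFKB1 start region, chr4:102500396-102502520, had pileups of 311, 272 and 295 in the controls, against 203, 157 and 190 with the knockdown. Its percentile by fold was 33.0, 22.3 and 28.9 against 61.4, 44.5 and 47.2, without overlap, but the difference of 23.05 (SE 7.22) did not pass the test (adjusted p = 0.0881). Ranked by pileup the same region stood between 89.8 and 95.4 in all 6 libraries, with a difference of 2.27 (adjusted p = 0.214). The local background here was 13.4 times the library-wide rate in the controls, and the fold is taken over that background.

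At the far end of NFKB1 the region chr4:102616192-102617046, 0.26 kb inside the annotated end, had pileups of 380, 431 and 383 against 136, 169 and 158. Its pileup was above that of the start region in the controls and below it on average in the knockdown libraries. Its rank by fold differed by 9.88 (adjusted p = 0.374), while its rank by pileup differed in the opposite direction, by −5.12 (SE 1.08, adjusted p = 0.00668). The region chr4:102619789-102621121, 2.49 kb beyond the gene, had pileups of 316, 381 and 317 against 160, 144 and 186. It covered 1327, 1310 and 1322 bp, not scaled, in the controls, against 605, 449 and 802 bp with the knockdown, with no overlap. Its rank by peak width differed by −35.6 and did not pass the test (adjusted p = 0.176). Its percentile by fold was 41.4 ± 1.28 against 64.9 ± 4.19, a difference of 23.4 (SE 5.86, adjusted p = 0.0548), and by pileup it was −1.85 (adjusted p = 0.270).

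Other NFKB1 regions, chosen after their values were seen, moved the other way by pileup rank. The region chr4:102493418-102494369, 6.99 kb upstream of the gene, had pileups of 42, 41 and 56 against 33, 42 and 47. It ranked higher by pileup in the knockdown libraries, by 22.8 (SE 5.94, adjusted p = 0.0218), while by fold the difference was 24.2 (adjusted p = 0.0846). The region chr4:102552753-102553329 inside the body had pileups of 20, 39 and 29 against 27, 47 and 24, which overlapped, and also ranked higher by pileup (28.3, SE 8.11, adjusted p = 0.0346). The NFKB1 body thus held regions called lower and a region called higher by pileup rank in the knockdown libraries.

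NFKB2 had its strongest peak over its first 2 start entries, at chr10:102393942-102395243. Pileups were 367, 372 and 398 in the controls, against 213, 211 and 205 with the knockdown. The percentile by fold was 59.2, 49.0 and 57.9 against 72.4, 72.2 and 63.5, a difference of 14.1 (SE 5.81, adjusted p = 0.161). By pileup the difference was −0.05 (adjusted p = 0.983), and the region ranked between 93.9 and 96.3 in all 6 libraries.

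The region over the third NFKB2 start, chr10:102395308-102396171, holds the stretches at −176 and −21 printed above and was chosen after its values were seen. Its pileups were 132, 155 and 153 in the controls, against 99, 109 and 99 with the knockdown. By fold its percentile was 4.02, 5.11 and 4.597 against 18.4, 25.04 and 13.7, a difference of 14.5 (SE 4.13, adjusted p = 0.0726). By pileup it ranked higher in the knockdown libraries by 8.47 (SE 2.28, adjusted p = 0.0257). Further inside NFKB2 the region chr10:102399285-102399853 had pileups of 223, 241 and 211 against 92, 75 and 100. It covered 558, 563 and 552 bp against 472, 377 and 473 bp, not scaled, and its rank by peak width differed by 1.67 (adjusted p = 0.925). Its rank by fold differed by −1.63 (adjusted p = 0.888) and its rank by pileup was lower by 6.11 points in the knockdown libraries (difference −6.11, SE 1.81, adjusted p = 0.0408). Within this gene of 8420 bp, by pileup, the start region did not pass the test, the region after it ranked higher and the one further inside ranked lower.

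**Figure D4:**
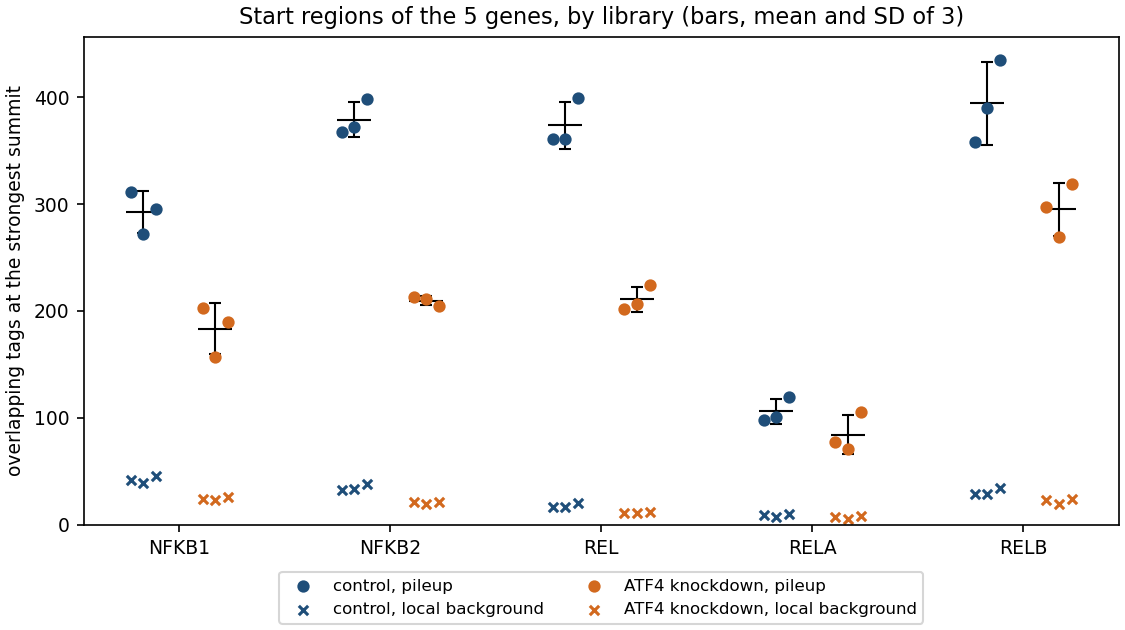
Pileup (filled circles, overlapping tags) and local background (crosses) at the strongest summit of each start region, with 1 point per library, the mean as a line and the SD of 3 libraries as a bar. For RELB the region at its lower annotated end is shown. Pileups, not scaled for depth, are lower in the knockdown libraries for NFKB1, NFKB2, REL and RELB and overlap for RELA.

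Among the genes with activation domains, REL encodes c-Rel, the subunit best known in lymphocytes. Its start region, chr2:60880766-60882085, had pileups of 361, 361 and 399 in the controls, against 202, 206 and 224 with the knockdown. Its fold of 20.2, 20.9 and 18.8 in the controls was the highest of the 5 start regions, on a local background of 16.3 to 20.3. The percentile was 95.6, 92.1 and 95.3 against 96.3, 96.8 and 95.7, a difference of 1.92 (SE 1.78, adjusted p = 0.521). Summits lay 17 to 27 bp upstream of the REL start in all 6 libraries. This region covered 1314, 1249 and 1287 bp, not scaled, in the controls, against 1091, 1050 and 1039 bp with the knockdown. Its rank by peak width differed by −3.20 (adjusted p = 0.372).

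The called REL region, chr2:60872037-60872993, lay between protein-coding genes, 8.58 kb upstream of REL and nearer to it than to any other such gene. Pileups were 42, 44 and 50 in the controls, against 8, 10 and 10 with the knockdown, the latter 0.206 times the former on average. The −log10 q was 21.7, 27.5 and 29.3 against 0.98, 2.76 and 2.24, so 1 knockdown library listed it below the value of 2 used to call a region found. Its percentile by fold fell from 35.6 ± 6.62 to 6.08 ± 4.44 (SD, n = 3), a difference of −29.5 (SE 5.87, adjusted p = 0.0372). By pileup the difference was −29.7 (SE 5.41, adjusted p = 0.00277). Among the regions of the family listed in all 6 libraries, this REL region and the called NFKB1 region were both of moderate strength in the controls and close to the lower limit of listing in the knockdown libraries.

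In the rest of the REL window, 3 more regions were called lower by pileup and none was called higher. These were chr2:60822370-60822944 (difference −25.1, adjusted p = 0.0222), chr2:60839425-60841598 (−6.89, adjusted p = 0.00487) and chr2:60992773-60993500, inside PUS10 (−7.72, adjusted p = 0.0492). The first pair lay nearest to PAPOLG. All 3 were picked with their values known, and by fold none of them passed the test. With the called region this made 4 called lower and 0 called higher by pileup of 11 regions tested near REL. Of all regions 5.45% were called lower and 4.88% higher. The calls by pileup were 2 lower and 2 higher near NFKB1, 1 and 1 near NFKB2, 0 and 3 near RELA, and 1 and 2 near RELB. By fold the median difference near REL was 3.04, and the groups did not overlap for 4 regions that ranked higher and 2 that ranked lower. Over all common regions these shares were 19.7% and 13%.

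RELA encodes p65, the activating subunit of the classical dimer. Its start region, chr11:65662586-65663948, was the weakest of the 5 by pileup, with 98, 101 and 119 in the controls, against 77, 71 and 105 with the knockdown, which overlapped. Its local background was also the lowest, at 7.62 to 9.81 in the controls. The percentile by fold was 50.5, 54.1 and 63.3 against 72.4, 74.4 and 78.9, without overlap, a difference of 19.2 (SE 5.60, adjusted p = 0.0749). By −log10 q the rank was higher in the knockdown libraries by 15.7 (adjusted p = 0.0236), and by pileup by 13.9 (SE 3.05, adjusted p = 0.00856). The mean pileup was 0.796 times that of the controls. Summits lay 577 to 815 bp downstream of the first start entry in the direction of transcription, so nearer to the second entry. At the other end of RELA, the region chr11:65652146-65653365 had pileups of 124, 124 and 127 against 79, 70 and 75 and a rank difference of 4.01 (SE 5.94, adjusted p = 0.702).

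RELB encodes RelB, the partner of p52 in the alternative pathway. Its start region, taken at the lower annotated end, was chr19:45001141-45002535. It had the highest mean pileup of the 5 in both groups. Pileups were 358, 390 and 435 in the controls, against 297, 269 and 319 with the knockdown. The percentile by fold was 65.5, 62.1 and 71.2 against 85.4, 86.3 and 82.6, and it rose by 18.5 points (SE 4.40, adjusted p = 0.0499), just inside the threshold of 0.05. Among regions at a −log10 q of at least 5 in all libraries alone, the percentile rose by 24.5 (SE 5.84, adjusted p = 0.0503), just outside that threshold. By pileup it rose by 2.69 (SE 0.73, adjusted p = 0.0264), from between 94.9 and 97.0 to between 98.5 and 98.7. The mean pileup in the knockdown libraries was 0.748 times that of the controls, against the median of 0.524 times over all common regions. The fold itself was 12.1, 13.2 and 12.4 against 12.4, 13.2 and 12.7, so the rank rose while the fold overlapped between the groups.

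Inside RELB the region chr19:45015767-45017443, 15.1 kb from the lower annotated end, had pileups of 310, 349 and 332 against 191, 171 and 214. Its rank by fold differed by 15.6 (SE 4.44, adjusted p = 0.0711) and by pileup by 0.90 (adjusted p = 0.566). The region chr19:45038685-45039736, at the upper end of RELB and at an end of CLASRP, had pileups of 281, 276 and 282 against 158, 146 and 137 and a difference of −5.46 (SE 3.16, adjusted p = 0.297). The other called regions of the window belong by position to neighbouring genes. One at chr19:44954504-44955890, at an end of CLPTM1, rose from a percentile of 75.7 ± 4.47 to 92.7 ± 1.54 (difference 16.995, SE 3.33, adjusted p = 0.0364). One at chr19:45075166-45076683, at an end of ZNF296, rose from 41.0 ± 4.57 to 69.1 ± 5.97 (difference 28.0, SE 6.21, adjusted p = 0.0442). By pileup the CLPTM1 region again ranked higher (5.18, adjusted p = 0.00968), and the ZNF296 region did not pass (1.08, adjusted p = 0.422).

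**Figure D5:**
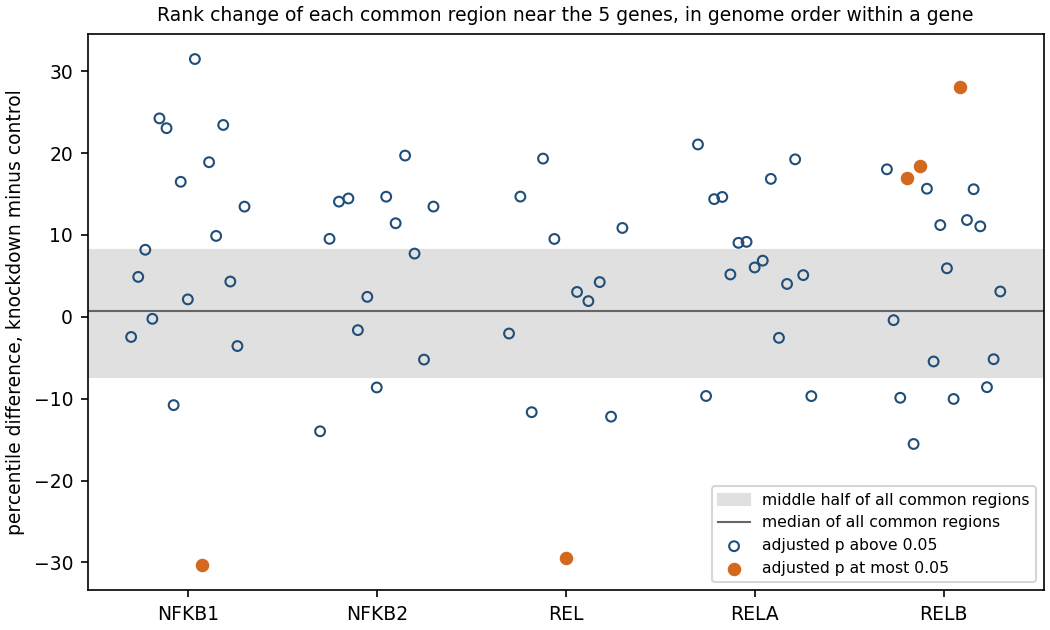
Difference in percentile rank by fold (knockdown minus control, y axis) of the 74 regions near the 5 genes, in genome order within a gene, with called regions filled. The grey band is the middle part of all 68049 common regions, between their quartiles, and the line is their median of 0.77, and more points lie above the band than below it.

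Over the 74 regions the libraries did not overlap between the groups for 34 regions (45.9%) that ranked higher by fold and 9 regions (12.2%) that ranked lower in the knockdown libraries. Over all common regions these shares were 19.7% and 13%. The median difference was 7.29 percentile points near the 5 genes and 0.77 over all common regions. By pileup the shares near the 5 genes were 24.3% higher and 17.6% lower, against 14.8% and 14.6% over all common regions. The local background also differed between the 2 sets of regions. In the controls it was 3.51 times the library-wide rate at the median member region and 1.78 times at the median of all common regions. In the knockdown libraries these values were 3.00 and 1.54. The part of the local background in the ranks by fold was not tested. By pileup 8 of the 74 regions were called lower, where 5.45% of all regions were, and 8 higher, where 4.88% were. By −log10 q, 6 were called lower, where 3.72% of all regions were, and 7 higher, where 3.47% were.

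The rest of the pathway was read from a list of 27 genes by covered length in the same windows of 100 kb. Among the 6 inhibitors and nuclear partners of the family, which bind the dimers and hold or steer them, 4 had a lower mean and none passed the test, with log2 differences from −0.14 to 0.08. Among the 5 genes of the kinases and their complex, 3 had a lower mean and none passed, from −0.17 to 0.03. Among the 7 receptors, which include those of the survival signals that plasma cells receive, 6 had a lower mean and none passed, from −0.13 to 0.05.

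Among the 9 adaptors and ubiquitin enzymes of the pathway, 6 had a lower mean and 1 passed the test. TNIP1, which encodes a partner of the deubiquitinase A20, had 15933, 15301 and 14962 scaled bp in the controls, against 12811, 12721 and 12525 with the knockdown. Its groups did not overlap, and it fell by 0.28 on the log2 scale (SE 0.07, adjusted p = 0.0148). The call was lost without control replicate 1 (adjusted p = 0.0904), with peaks at a −log10 q of 5 or more (adjusted p = 0.450), with lists of equal length (adjusted p = 0.0704), with a window of 10 kb (adjusted p = 0.106) and in the gene body alone (adjusted p = 0.186). The other 8 genes of this group had log2 differences from −0.18 to 0.20, and 0 of them passed. Over the list 1 of 27 was called lower and 0 higher, where 5.22% of all genes were called in each direction, so the list did not exceed the background. In all, 19 of the 27 had a lower mean, as did 11891 of the 19868 genes tested, and the median log2 difference was −0.08 against −0.04 over all genes.

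The genes on other chromosomes whose covered length varied most like that of a member over the 6 libraries were FDFT1 and ELANE for NFKB1, NAGLU and SLC16A8 for NFKB2, and DDX23 for REL. They were FYB2 and RAB3B for RELA, and UBE2L5 and WNT1 for RELB. Pearson's r was 0.987 to 0.996 over 6 libraries, which share their depth and their group. Between 76 genes, for REL, and 619 genes, for RELB, reached an r of at least 0.9, so such values were common among the 18066 to 18773 genes compared.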

How the data were processed

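ATAC-seq peak lists of 6 KMS-11 libraries, 3 control and 3 ATF4 knockdown, were used. Per the submitters' processing notes, MACS2 and hg38 were used. Versions, settings, aligner, read filters and any offset shift are not named in those notes or in the labels. The deposited fold is a ratio of pileup to local background, the deposited −log10 p and −log10 q come from the caller's test within a library, and the deposited score is 10 times the −log10 p for over 99% of summits. All move with depth. Pileup and local background were solved for at each summit from its deposited fold and p (100% of summits, tolerance 0.01 on the −log10 scale).

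Gene positions, for protein-coding genes alone, and start sites came from RefSeq on GRCh38.p14. Whether a region lay near or inside a noncoding gene was not read. Listed peaks in the gene body and 100 kb to each side were summed as bp, scaled to the mean total covered length, and compared as log2(bp + 200) for genes covered in at least 3 libraries. This scale understates changes of genes with few covered bases. Percentile ranks of regions listed in all 6 libraries were compared in a separate fit. Both fits used limma 3.58.1 in R 4.3.3 (trend and robust settings, Benjamini-Hochberg adjustment over all genes or regions, threshold 0.05) and were tested on simulated data. Permutation tests were exact and two-sided. Ranking by pileup was added after the data were seen. Members, gene lists and alternatives were chosen with earlier results of these data known.

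Named items are the 5 genes, their regions within 1 kb of a gene end, the 2 regions nearest to or inside each gene with the highest median −log10 q, group-specific regions, the pathway genes past the threshold or else the 2 with the smallest p, and the 2 genes most like each member among those with a mean of at least 1000 covered bp. Other called regions were picked with their values known. A gene chosen by this rule and a marker are not reported here.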

Additional observations from a re-analysis of the deposited data

How the results depend on the processing

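The groups did not overlap in library-wide background, which moves with depth, and the part of depth in these results was not tested. Of 499 values under alternatives, 319 kept direction and side of the threshold, 79 counts or values moved, 48 reversed, 48 lost a call and 5 gained one in the same direction. The cause of these changes was not tested.

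For covered length, genes called lower and higher were 6631 and 667 without scaling, 514 and 625 with the minimum −log10 q set to 2, 435 and 470 with equally long lists, 525 and 567 with 50 kb, 123 and 126 with 10 kb, and 1 and 5 in the gene body alone. With that minimum at 5, 4435 were higher. They were 275 to 1230 lower and 496 to 1033 higher with 1 library left out. NFKB1 was −0.12 without scaling, −0.025 with 50 kb, −0.064 with 10 kb and −0.032 to 0.039 with 1 library left out. NFKB2 was −0.24 without scaling, 0.041 at a minimum of 2, 0.19 at 5, 0.00016 with 10 kb and 0.016 in the body. REL was 0.057 at 5. RELA was 0.10 at 2, 0.26 at 5, 0.049 with equal lists, 0.10 in the body and −0.038 to 0.031 with 1 library left out. RELB was −0.17 without scaling, 0.014 at 2, 0.15 at 5 and 0.0033 with equal lists.

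For ranks, all regions called lower and higher were 2532 and 2361 by −log10 q (6 and 7 near the 5 genes), 3709 and 3324 by pileup (8 and 8), 49 and 10 by width (0 and 0), and 0 near the 5 genes were lower where every library had to reach 5. With 1 library left out, 0 to 916 were lower and 0 to 338 higher, and 0 near the 5 genes. The labels do not say what a replicate number shares across groups, and same-numbered libraries had correlations of deviations of 0.068, 0.10 and 0.066 for covered length and 0.050, 0.0016 and −0.011 for ranks. With the replicate block 0 regions were called in either direction, 0 of them near the 5 genes, at a smallest adjusted p of 0.0797, where 17329 regions and 26 near the 5 genes had an unadjusted p under 0.05 and limma without the block had 18234 and 31. The block left the 5 genes uncalled by covered length, with 1392 lower and 1163 higher in all.

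By −log10 q the REL start differed by −0.067 and the far-end NFKB1 region by −6.91. By pileup the latter was −5.12, the region beyond NFKB1 −1.85 and the NFKB2 start −0.048. By width the REL start was −3.20, the region beyond NFKB1 −35.6, the NFKB2 start −0.29, the inner NFKB2 region 1.67, the far-end RELA region −4.89 and the CLASRP region 7.42. Without knockdown replicate 2 the inner NFKB2 region was 0.049 (range −3.16 to 0.049).

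Regions specific to the knockdown libraries numbered 3 by any listed peak. With 1 library left out, 4 to 6 were specific to the controls, 6 without control replicate 3 and 5 without knockdown replicate 1, and 0 to 1 to the knockdown libraries. Differences in window totals at a minimum of 5 were −1 merged peak for NFKB1, −4 for REL, −1.67 for RELA and −5 for RELB, and 28.7 ppm of covered bases for NFKB2, 8.70 for REL, 50.6 for RELA and 45.1 for RELB. With 10 kb they were −6.93 ppm for NFKB1, 0.45 for NFKB2 and −1.33 merged peaks for RELB. With 1 library left out they were −5.69 to 7.13 ppm for NFKB1, −5.35 to 4.57 for RELA and −0.83 to 1.67 merged peaks for REL.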
